A study of Rattus norvegicus with 4 samples.

Results

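The 8 genes described here belong to the neurotrophin and GDNF-family signalling system: the ligands Bdnf, Ntf3 and Gdnf, the receptors Ngfr, Ntrk2, Ntrk3 and Gfra3, and the growth cone protein gene Gap43. They were chosen by symbol, by a rule that uses no measured value but with earlier results of these data known, and all 8 were found, each as 1 of the 32623 features of the deposited matrices. The rat esophagus was profiled by single-cell RNA sequencing, which counts the transcripts of each captured cell by unique molecular identifiers (UMIs). There were 4 libraries, each a pool of the esophagi of 5 male Sprague-Dawley rats that were 6 weeks old, with X-rays given to the esophageal region. The control (0Gy_7d) received 5 sham fractions of 0 Gy and was taken at day 7. The single-dose library (35Gy_7d) received 1 fraction of 35 Gy and was taken at day 7. The fractionated libraries received 7 Gy on each of 5 days and were taken at day 7 (5x7Gy_7d) or day 14 (5x7Gy_14d). The day 14 library has no control of its own age, so time and dose differ together when it is set against the day 7 control.

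Neurotrophins are secreted proteins that sustain neurons and shape their endings. Mature BDNF binds the receptor kinase TrkB, encoded by Ntrk2, and NT-3, encoded by Ntf3, binds TrkC, encoded by Ntrk3; all of them, and their uncut precursors, also bind the receptor p75NTR, encoded by Ngfr. GDNF and its relatives bind a membrane-anchored GFRα co-receptor, of which the Gfra3 product is the one for artemin, and signal through the kinase RET. In skin and squamous mucosa, epithelial cells are a known source of neurotrophins for sensory endings, and Schwann cells, the glia of peripheral nerves, carry p75NTR and GAP-43 when they are not wrapping axons in myelin.

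Promoter windows are shown for Bdnf, the member with the largest epithelial difference after the single dose, and for Gdnf, with letters searched for factors that act on immediate-early genes, whose levels are given beside Bdnf below. Each window is RefSeq sequence of the GRCr8 build, from 250 bases before to 50 bases after a transcript start, 5′ to 3′ on the plus strand. Capitals mark matches on either strand to the core of a cAMP response element (TGACG), an AP-1 site (TGANTCA) or an E-box (CACGTG). Of 6 Bdnf windows, the 3 that hold a match are shown, with the single Gdnf window.
Bdnf, chr3:116620585-116620884: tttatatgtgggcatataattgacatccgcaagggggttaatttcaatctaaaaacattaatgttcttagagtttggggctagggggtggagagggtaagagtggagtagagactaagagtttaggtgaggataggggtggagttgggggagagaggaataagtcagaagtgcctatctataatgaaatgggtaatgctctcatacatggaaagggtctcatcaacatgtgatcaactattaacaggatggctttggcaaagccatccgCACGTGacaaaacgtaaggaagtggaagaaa
Bdnf, chr3:116621721-116622020: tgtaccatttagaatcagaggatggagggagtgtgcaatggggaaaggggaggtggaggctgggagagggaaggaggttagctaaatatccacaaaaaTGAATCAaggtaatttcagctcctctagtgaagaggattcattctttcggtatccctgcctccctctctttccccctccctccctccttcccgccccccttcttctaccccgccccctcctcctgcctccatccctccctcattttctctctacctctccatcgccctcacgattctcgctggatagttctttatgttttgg
Bdnf, chr3:116637608-116637907: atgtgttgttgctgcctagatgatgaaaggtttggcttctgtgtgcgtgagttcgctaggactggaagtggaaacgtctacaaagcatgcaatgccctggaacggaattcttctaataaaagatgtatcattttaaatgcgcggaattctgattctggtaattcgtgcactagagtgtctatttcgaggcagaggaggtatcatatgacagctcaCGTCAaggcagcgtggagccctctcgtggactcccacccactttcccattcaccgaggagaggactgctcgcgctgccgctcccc
Gdnf, chr2:58621077-58621376: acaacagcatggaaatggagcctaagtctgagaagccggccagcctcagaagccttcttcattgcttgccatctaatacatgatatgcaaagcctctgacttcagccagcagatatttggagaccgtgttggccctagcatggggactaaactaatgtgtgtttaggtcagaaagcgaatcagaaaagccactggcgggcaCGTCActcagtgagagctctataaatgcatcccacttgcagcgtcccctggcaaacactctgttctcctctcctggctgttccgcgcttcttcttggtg
The first Bdnf window holds 1 E-box, the next 1 AP-1 site, and the last 1 TGACG core, as does the Gdnf window. Among all 33469 windows of this length, 21.2% hold the core, 7.33% the AP-1 site and 6.42% the E-box, so these matches are common letters and no more than a description. The full element TGACGTCA, found in 1.83% of windows and always including the core, was in none of the 11 windows of the members, and neither was the Egr1 motif GCGTGGGCG, found in 0.544%. Windows of 4 of the 8 genes (Bdnf, Ntf3, Gdnf and Gfra3) were in the table. The counts come from transcript 3′ ends and do not tell which Bdnf start was used.

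After filtering, 9080 to 11813 cells per library remained, with a median of 5107.5 to 6374 UMIs per cell. Before filtering, all barcodes of a library together held 59805782 to 109618791 UMIs. Cells were assigned to classes by marker genes, none of them a member, and a class name stands for cells like that type. The epithelial class held 2458 cells in the control, 3267 after the single dose, 6342 at fractionated day 7 and 405 at day 14, and all 13 epithelial markers matched to a feature were detected in each library. The glial class held 260, 133, 37 and 452 cells in the same order, with all 9 matched glial markers detected. Fewer than 50 cells were taken as too few for a comparison, which leaves out day 7 fractionated glia. Between 26 and 38 barcodes were shared by any pair of libraries. The day 7 irradiated libraries had more barcodes over the mitochondrial limit (15.2% and 16.6%, against 5.49% in the control and 3.71% at day 14). Levels are UMIs of a gene per 1000000 UMIs of its class (CPM), summed over the cells of the class, intervals are exact 95% intervals for counting error only, and each group is 1 pooled library, so no difference has a replicate check and no p-value is given.

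The genes fell into separate compartments in the control. Bdnf was highest in epithelial cells, Ntf3, Ntrk2 and Ntrk3 in smooth muscle, and Ngfr, Gfra3 and Gap43 in glia, and in each of these 7 cases the interval of the highest class lay clear of the next. For Gdnf, whose highest levels were 3.13 CPM in skeletal muscle fibres and 2.63 CPM in fibroblasts, the intervals overlapped. The fibre value rested on 73 cells, so fibroblasts, which held 76.8% of control Gdnf UMIs, were the class with usable counts.

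**Figure D1:**
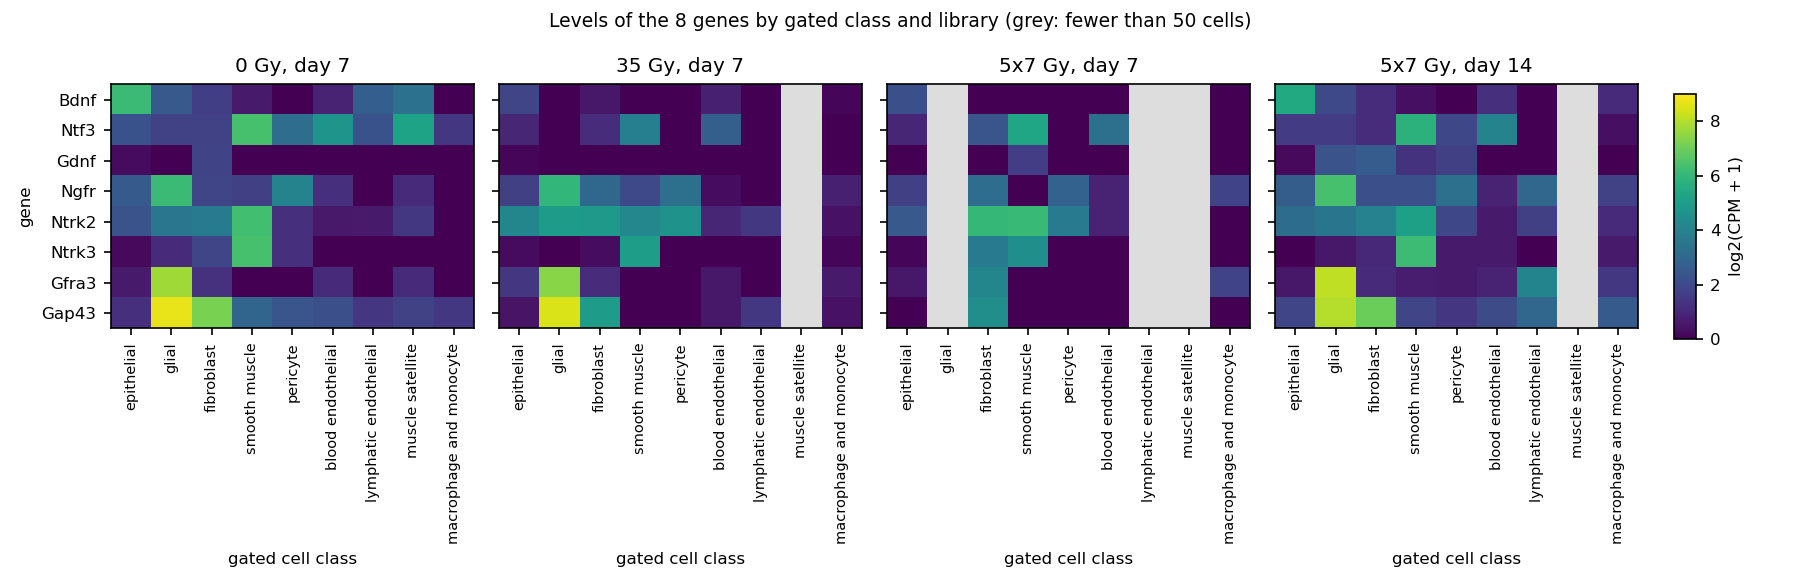
Level of each of the 8 genes (rows) in each gated class (columns) and library (panels), as log2(CPM + 1) on a shared colour scale; grey marks classes with fewer than 50 cells. Bdnf is bright in epithelial cells of the control and day 14 libraries and dim in both day 7 irradiated libraries, while Gap43, Gfra3 and Ngfr stay brightest in glia wherever glia could be counted.

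A gene was counted as different between libraries at a ratio of at least 2-fold with at least 20 UMIs in the pair. In epithelial cells, 4 of the 7 members with enough UMIs were lower after the single dose than in the control (Bdnf, Ntf3, Ngfr and Gap43), where 10.1% of all tested features were, and 2 were higher (Ntrk2 and Gfra3), where 10.5% were. After fractionated dosing at day 7, 4 of 6 members were lower than in the control (the same 4), against 12% of features, and 0 of 6 were higher, against 11.8%. With every cell weighted equally, Ngfr was at -0.77 on the log2 scale there, under 2-fold. At day 14, 0 of 6 were lower than in the control, against 5.34% of features, and 2 of 6 were higher (Ntrk2 and Gap43), against 8.24%. Neither of these calls held throughout: Ntrk2 was under 2-fold with every cell weighted equally (0.61 on the log2 scale) and in basal cells alone (0.32), and Gap43 was under 2-fold with equal weights (0.60) and lower than the control in suprabasal cells alone (-0.89). The count of 0 lower at day 14 did not hold in each state. In basal cells alone, 1 of 5 members was lower (Ntf3), where 4.59% of features were. Another 1 was higher there, where 5.29% were. In suprabasal cells 1 of 4 was lower (Bdnf), where 7.69% were, and 1 was higher, where 6.4% were. In cycling cells 0 of 4 differed. Between the day 7 irradiated libraries, 3 of 6 members were lower after fractionated than after single dosing (Ntrk2, Gfra3 and Gap43), against 13.8% of features, and 0 were higher, against 7.89%. In cycling cells alone, 2 of 6 were higher, where 12.4% of features were, and 1 was lower, where 10.9% were. Basal cells gave 0 of 5 higher (6.73% of features) and 2 lower (10.3%). Suprabasal cells gave 0 of 3 higher (7.42%) and 2 lower (7.65%). From day 7 to day 14 after fractionated dosing, 3 of 5 members were higher (Bdnf, Ntf3 and Ngfr), against 15% of features, and 0 were lower, against 12.8%. Ntf3 and Ngfr were under 2-fold in that comparison with every cell weighted equally (0.24 and 0.38 on the log2 scale) and in basal cells alone (0.27 and 0.38). The 3 comparisons with the control share that library. The Gap43 entries in these counts rest on epithelial levels close to or below those of a class that should lack the gene, given below.

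Bdnf, the ligand of TrkB, was much lower in epithelial cells of both day 7 irradiated libraries. Its level was 69.7 CPM in control epithelial cells (67.2 to 72.3, 2945 UMIs), 2.70 CPM after the single dose (2.34 to 3.11, 196 UMIs), 3.55 CPM at day 7 of fractionated dosing (3.06 to 4.11, 181 UMIs) and 43.6 CPM at day 14 (38.4 to 49.2, 256 UMIs). Both day 7 irradiated libraries were far below the other two, and no intervals overlapped across that gap. The level was 25.8-fold lower (22.3 to 30.0) after the single dose and 19.6-fold lower (16.9 to 22.9) after fractionated dosing than in the control. At day 14 it was 12.3-fold higher (10.1 to 14.9) than at day 7 of the same schedule and 1.60-fold lower (1.41 to 1.83) than in the control. Over all epithelial cells, the fractionated day 7 level was 1.32-fold (1.07 to 1.62) above the single-dose level, under the 2-fold limit. The order of those libraries differed by epithelial state, as given below.

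The share of epithelial cells with a Bdnf UMI was 50.9%, 5.17%, 2.55% and 27.4% in the 4 libraries, taken here and below in the order given above. With each cell thinned to 1000 UMIs, which removes the difference in depth (medians of 15307, 18828, 6812.5 and 13863 UMIs), the shares were 6.58% (5.63 to 7.64), 0.278%, 0.403% and 4.50%. In macrophages and monocytes, cells with no known Bdnf role here, 0 of 156 control cells had a Bdnf UMI (median depth 3533 UMIs), and 0.504% of 794 cells did at day 14 (median depth 4162 UMIs). Epithelial cells held 90.3%, 94.7%, 92.3% and 70.5% of the Bdnf UMIs of all kept cells; at day 14, when they were 4.02% of cells, fibroblasts held another 13.2%. Fibroblast levels were 2.18, 0.480, 0 and 1.22 CPM, far under the epithelial ones.

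The difference was present in each epithelial state. Epithelial cells with at least 3 cell-cycle markers were set apart first, and the rest were split into basal and suprabasal by their higher marker score. In basal cells, the layer on the basement membrane, Bdnf was at 117, 6.29, 6.36 and 63.7 CPM. In suprabasal cells, which differentiate above it, the levels were 51.9, 2.37, 1.50 and 20.5 CPM. In cells with cell-cycle markers they were 61.7, 1.15, 3.44 and 33.8 CPM. Basal cells were the highest of the 3 states in every library, and in every state the day 7 irradiated libraries were the lowest pair. Within that pair, the fractionated level was the higher in cycling cells (3.44 against 1.15 CPM) and the lower in suprabasal cells (1.50 against 2.37 CPM). Cycling cells were 1259 of 3267 epithelial cells after the single dose and 778 of 6342 at fractionated day 7.

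Immediate-early and heat shock genes, which are switched on within minutes by stimulation or by tissue handling, moved with Bdnf. All 13 listed genes tested in epithelial cells were at least 2-fold lower than in the control in both day 7 irradiated libraries, and 0 were different at day 14. Their summed epithelial level was 20836 CPM in the control, 2603 CPM after the single dose, 1807 CPM at fractionated day 7 and 20250 CPM at day 14. Fos, a subunit of AP-1, was at 3689 CPM in the control and 215 and 6.11 CPM in the day 7 irradiated libraries. When the cells of each library were split into 3 equal parts by the summed share of these genes, control Bdnf was 67.9, 73.8 and 67.5 CPM from the lowest to the highest part. Single-dose Bdnf was 1.44, 2.12 and 4.85 CPM, and fractionated day 7 Bdnf was 4.56, 4.85 and 1.96 CPM. At day 14 it was 11.5, 55.1 and 55.1 CPM. Over all epithelial cells, Bdnf was lowest in the lowest part of the single-dose and day 14 libraries, and in the highest part at fractionated day 7. These parts mix epithelial states. Within basal cells alone, control Bdnf was 99.6 CPM (89.0 to 111), 120 CPM (108 to 132) and 131 CPM (118 to 144) from the lowest to the highest part. Single-dose basal Bdnf was 4.94, 5.17 and 8.92 CPM, fractionated day 7 basal Bdnf was 5.59, 5.63 and 8.02 CPM, and day 14 basal Bdnf was 21.2, 76.6 and 85.0 CPM. In basal cells the highest part had the highest Bdnf value in each of the 4 libraries. Its interval overlapped that of the middle part in each library. After the single dose (6.64 to 11.7 CPM) it also overlapped the lowest part (3.31 to 7.10 CPM). The same held at fractionated day 7 (5.89 to 10.7 against 3.87 to 7.81 CPM). The lowest basal control part had more Bdnf than every basal part of both day 7 irradiated libraries. It stood at 12869 CPM of the listed genes, against 4256 and 1707 CPM in the highest single-dose and fractionated day 7 basal parts. These basal parts therefore did not match in that level. The parts over all epithelial cells did not match across libraries: the lowest control part stood at 13237 CPM of these genes, the highest single-dose part at 4372 CPM, the highest fractionated day 7 part at 3068 CPM and the lowest day 14 part at 8178 CPM. The part of these genes in the Bdnf difference was not tested.

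**Figure D2:**
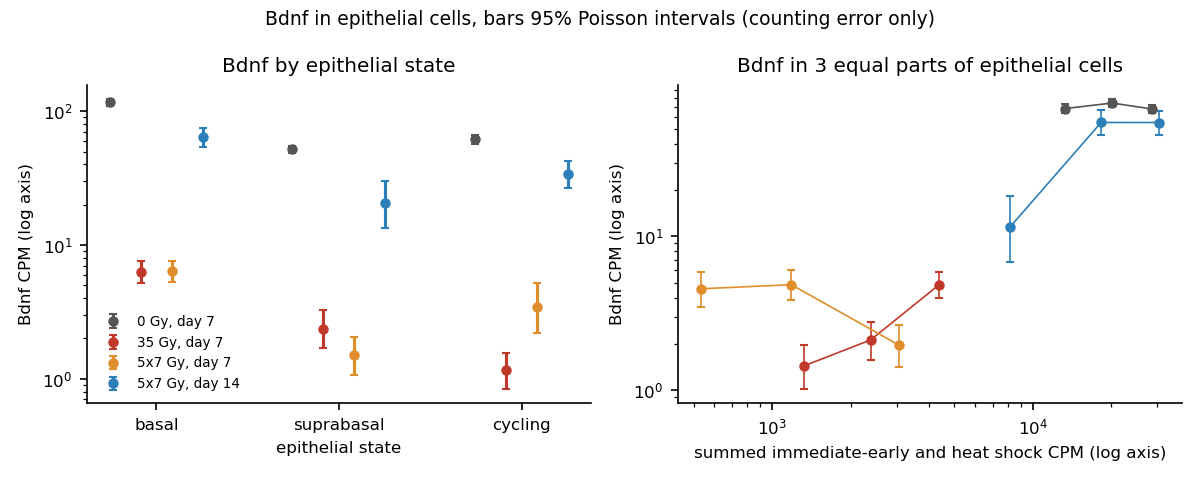
Left, Bdnf level (CPM, log axis) in basal, suprabasal and cycling epithelial cells of each library; right, Bdnf level against the summed level of immediate-early and heat shock genes (both CPM, log axes) in 3 equal parts of the epithelial cells of each library, with 95% Poisson intervals. In each state the 2 day 7 irradiated libraries lie lowest, and the lowest day 14 part, at 11.5 CPM, lies below the other day 14 parts.

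Ntf3, which encodes NT-3, was spread over more classes. Epithelial levels were 3.81 CPM in the control (3.25 to 4.45, 161 UMIs), 0.951 CPM after the single dose (69 UMIs), 0.962 CPM at fractionated day 7 (49 UMIs) and 2.04 CPM at day 14 (1.06 to 3.57, 12 UMIs). The day 7 irradiated levels were 4.01-fold (3.01 to 5.40) and 3.96-fold (2.86 to 5.57) lower than the control. Within the epithelium the transcript was mainly basal: 9.05 CPM in control basal cells against 0.520 CPM in suprabasal cells. The levels over all epithelial cells mix states, and basal cells were 846 of 2458 in the control but 192 of 405 at day 14. In the 3 basal parts described above, from lowest to highest, Ntf3 was 6.78, 10.1 and 10.2 CPM in the control. At day 14 it was 4.23, 1.11 and 2.30 CPM on 3, 1 and 2 UMIs. At day 7 it was 1.87, 3.60 and 2.10 CPM after the single dose and 2.30, 2.16 and 1.54 CPM after fractionated dosing.

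In smooth muscle, the class with the most Ntf3 in the control, levels were 81.5 CPM (68.8 to 95.9), 13.6 CPM (8.63 to 20.4), 38.6 CPM (22.9 to 61.0) and 53.7 CPM (46.1 to 62.2) in the same order of libraries. The single-dose level was 5.99-fold (3.84 to 9.75) lower than the control and lay below the intervals of the other 3 libraries. Blood endothelial cells gave 24.5, 5.59, 8.91 and 15.2 CPM. The single-dose value was the lowest, but its interval (3.55 to 8.39) overlapped that of fractionated day 7 (5.52 to 13.6). Muscle satellite cells, the stem cells of the striated muscle that forms the rat esophageal wall, had 36.0 CPM in 292 control cells, and too few were captured elsewhere to compare. Glia had 0 to 4 Ntf3 UMIs per library. The immediate-early and heat shock list summed to 40720, 5165, 1588 and 34889 CPM in smooth muscle and to 34149, 4016, 2070 and 31316 CPM in blood endothelial cells. Its part in the Ntf3 values was not tested.

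Gdnf, the ligand that signals through GFRα1 and RET, was counted mainly in fibroblasts of the control and day 14 libraries. Fibroblasts held 76 Gdnf UMIs in the control (2.63 CPM, 2.07 to 3.30), 0 in 630 single-dose cells, 0 in 81 fractionated day 7 cells and 202 at day 14 (5.12 CPM, 4.44 to 5.88). Against a floor of 3 counts in the single-dose library, its level there was at least 3.66-fold lower than in the control. The same floor stood at 12.5 CPM in the 81 fractionated cells, above the control level, so their count of 0 gives no comparison. The day 14 level was 1.94-fold (1.49 to 2.57) above the control, just under the 2-fold limit. Epithelial cells had 0 to 8 Gdnf UMIs per library, and glia had 0 in the control and 8 at day 14 (3.91 CPM, 1.69 to 7.70), beside the fibroblast level of 5.12 CPM.

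Ngfr encodes p75NTR, the receptor shared by all neurotrophins. In glia it was at 68.9 CPM in the control (52.4 to 88.8, 59 UMIs), 61.8 CPM after the single dose (39.2 to 92.7, 23 UMIs) and 82.0 CPM at day 14 (70.1 to 95.4, 168 UMIs). These 3 intervals overlap. The 37 glial cells at fractionated day 7 gave 5 UMIs. In epithelial cells Ngfr was at 4.86 CPM (4.21 to 5.57), 2.27 CPM (1.94 to 2.65), 2.24 CPM (1.85 to 2.69) and 5.28 CPM (3.58 to 7.49), so that both day 7 irradiated levels lay below the control and day 14 intervals. They were 2.14-fold (1.73 to 2.64) and 2.17-fold (1.72 to 2.75) lower than the control. Macrophages and monocytes had 0, 0.740, 2.55 (1 UMI) and 2.31 CPM of Ngfr, so only the control epithelial level had a background of 0, from 156 cells. Epithelial Ngfr was mainly basal, at 10.5 CPM in control basal cells against 1.23 CPM in suprabasal cells. In fibroblasts the single-dose level was instead the higher: 2.67 CPM in the control and 7.19 CPM after the single dose, 2.70-fold (1.71 to 4.16) higher.

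Ntrk2 encodes TrkB, the receptor kinase of BDNF, and after the single dose it was higher in epithelial cells, where its ligand was lower. Its epithelial level was 3.88 CPM in the control (3.31 to 4.53, 164 UMIs), 16.4 CPM after the single dose (15.5 to 17.4, 1192 UMIs), 4.69 CPM at fractionated day 7 (4.12 to 5.33, 239 UMIs) and 8.0 CPM at day 14 (5.88 to 10.6, 47 UMIs). The single-dose library stood above the other 3, with no overlap of intervals. It was 4.23-fold (3.59 to 5.01) above the control and 3.50-fold (3.04 to 4.04) above fractionated day 7, the comparison of schedules at 1 time. The share of epithelial cells with a Ntrk2 UMI, thinned to 1000 UMIs, was 0.452%, 1.39%, 0.742% and 0.5%; in macrophages and monocytes of the single-dose library it was 0 of 1976 cells. Basal cells again held most, at 9.05, 32.5, 9.27 and 11.3 CPM, and the single-dose level was also the highest in suprabasal cells (4.86 CPM) and in cycling cells (13.8 CPM). Of 6201 thinned fractionated day 7 epithelial cells, 46 were Ntrk2-positive, 25 Bdnf-positive and 1 both, with 0.19 expected if independent. In the single-dose library 0 of 3242 had both (45 and 9 positive, 0.12 expected). In the control 2 of 2432 had both (11 and 160 positive, 0.72 expected), and at day 14 0 of 400 (0.09 expected). These counts are too few to tell whether ligand and receptor share cells.

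In smooth muscle, Ntrk2 was instead lowest after the single dose. Levels were 76.4 CPM (64.1 to 90.4), 17.2 CPM (11.5 to 24.6), 66.4 CPM (45.1 to 94.3) and 33.9 CPM (27.9 to 40.8), so the single-dose level was 4.45-fold (2.97 to 6.90) under the control. Fibroblast levels were 12.1 CPM (10.9 to 13.4), 28.5 CPM (23.6 to 34.1), 62.6 CPM (35.0 to 103, only 15 UMIs) and 15.1 CPM (13.9 to 16.3). Glial cells had few Ntrk2 UMIs, 9 in the control (10.5 CPM) and 11 after the single dose (29.5 CPM), a ratio of 2.81 (1.06 to 7.68), and 21 at day 14 (10.3 CPM). No Ntrk2 isoform is distinguished in these counts, so full-length TrkB and the truncated receptor without a kinase domain are counted together.

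**Figure D3:**
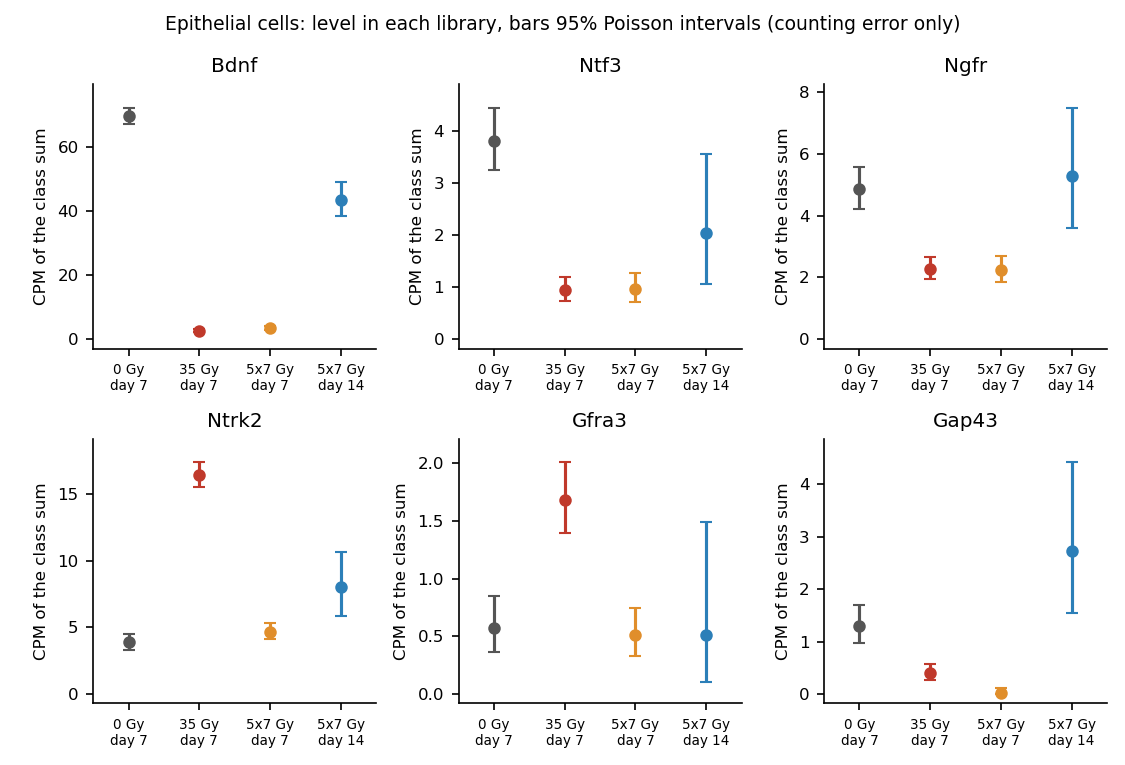
Level (CPM of the class sum) of 6 genes in the epithelial cells of each library, with 95% Poisson intervals for counting error. Bdnf, Ntf3 and Ngfr are lowest in both day 7 irradiated libraries, Ntrk2 and Gfra3 are highest after the single dose (16.4 and 1.68 CPM), and Gap43 is low throughout, at the level of its background.

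Ntrk3, which encodes TrkC, the receptor of NT-3, was a smooth muscle transcript. Smooth muscle levels were 81.5 CPM (68.8 to 95.9, 145 UMIs), 31.9 CPM (24.0 to 41.7, 54 UMIs), 21.4 CPM (10.3 to 39.4, 10 UMIs) and 71.1 CPM (62.4 to 80.8, 237 UMIs). Both day 7 irradiated levels lay under the control and day 14 intervals, by 2.55-fold (1.85 to 3.55) and 3.80-fold (2.01 to 8.10) against the control. Fibroblasts had 78, 1, 3 and 42 Ntrk3 UMIs. Epithelial cells had 0 to 14 UMIs per library and glia 0 or 1, so neither class had a usable level.

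In smooth muscle, 3 of 3 members with enough UMIs were lower after the single dose than in the control (Ntf3, Ntrk2 and Ntrk3), where 9.18% of features were, and 0 were higher, where 9.91% were. At fractionated day 7, 2 of 3 were lower (Ntf3 and Ntrk3), where 11.2% of features were, and 0 were higher, where 9.17% were. At day 14, 2 of 4 were lower (Ntrk2, and Gap43 on 12 and 9 UMIs, with a ratio interval of 0.966 to 6.71), where 2.65% were, and 0 were higher, where 8.18% were. Between the day 7 schedules, 2 of 3 were higher after fractionated dosing (Ntf3 2.83-fold and Ntrk2 3.87-fold), where 10% were, and 0 were lower, where 16% were. From day 7 to day 14 of fractionated dosing, 1 of 3 was higher (Ntrk3, 3.32-fold), where 16% were, and 0 were lower, where 7.55% were. Smooth muscle markers were detected, 8 of 8, in each library, with a summed level of 32334, 32719, 29392 and 24321 CPM, and median depths were 4602, 6357, 1737 and 5670 UMIs.

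In fibroblasts, 5 of 8 members were lower after the single dose than in the control (Bdnf, Ntf3, Gdnf, Ntrk3 and Gap43), where 13.4% of features were, and 2 were higher (Ngfr and Ntrk2), where 10.7% were. Of the 5, only Gap43 had more than 5 single-dose UMIs, so the other 4 ratios are imprecise. The 81 fractionated day 7 fibroblasts gave 4 of 8 higher (Ngfr, Ntrk2, Ntrk3 and Gfra3), where 21.7% of features were, and 1 lower (Gap43), where 9.94% were; those 4 rested on 2 to 15 UMIs. At day 14, 2 of 8 were lower than in the control (Ntf3 2.07-fold and Ntrk3 2.54-fold), where 4.2% were, and 0 were higher, where 9.54% were. Between the day 7 schedules, 1 of 3 was higher after fractionated dosing (Ntrk2), where 18.1% were, and 0 were lower, where 14.3% were. From day 7 to day 14 of fractionated dosing, 5 of 8 were lower, where 18.7% were, and 1 was higher (Gap43), where 9.74% were, all against the few day 7 cells. The immediate-early and heat shock list summed to 50260, 3707, 663 and 38322 CPM in fibroblasts, and its part in these values was not tested.

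**Figure D4:**
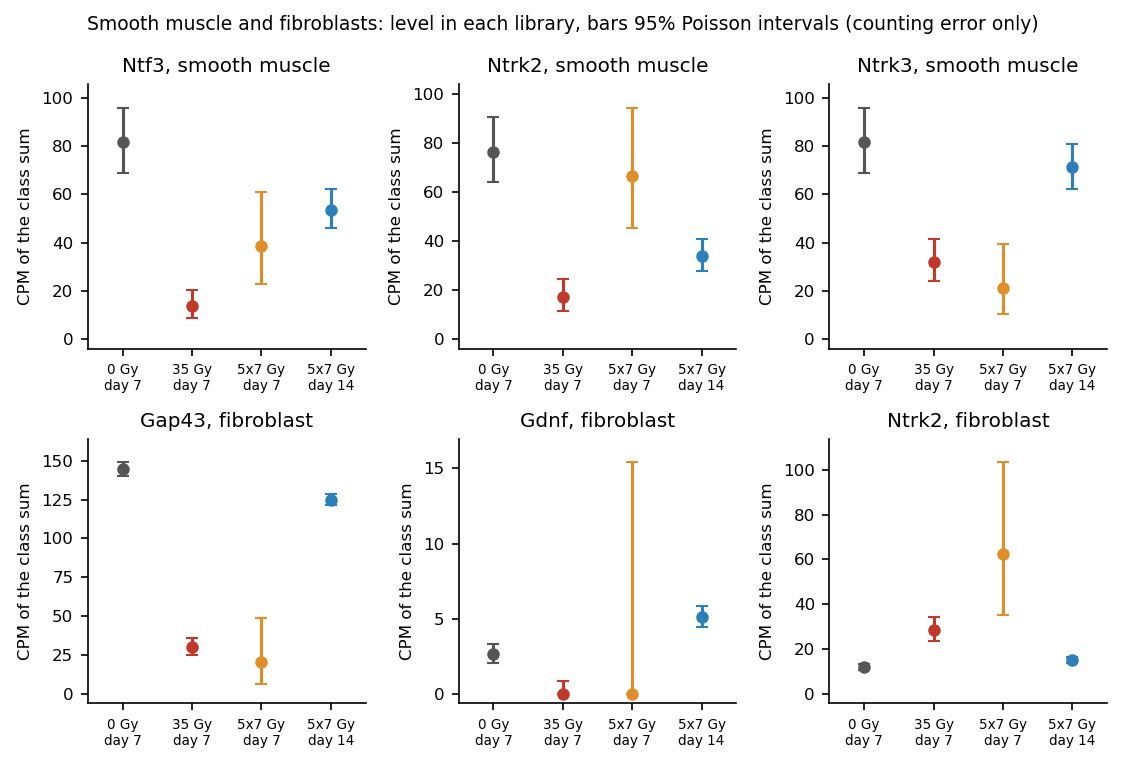
Level (CPM of the class sum) in smooth muscle (upper row) and fibroblasts (lower row) of each library, with 95% Poisson intervals for counting error. Ntf3 and Ntrk2 in smooth muscle are lowest after the single dose, at 13.6 and 17.2 CPM, and Gap43 in fibroblasts is low in both day 7 irradiated libraries, at 30.0 and 20.9 CPM.

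Gfra3 encodes GFRα3, the co-receptor of artemin. Glial levels were 210 CPM in the control (180 to 243, 180 UMIs), 169 CPM after the single dose (130 to 216, 63 UMIs) and 278 CPM at day 14 (256 to 302, 570 UMIs). The day 14 level was 1.32-fold (1.12 to 1.58) above the control, and the single-dose interval overlapped that of the control. The 37 fractionated day 7 glial cells gave 21 UMIs. Thinned to 1000 UMIs, the share of glial cells with a UMI was 17.3%, 15.4% and 22.1% in the control, single-dose and day 14 libraries, against 0% of control and single-dose and 0.383% of day 14 macrophages and monocytes. In epithelial cells Gfra3 was low, at 0.568, 1.68, 0.511 and 0.510 CPM, and the single-dose level was 2.96-fold (1.90 to 4.79) above the control. Macrophages and monocytes had 0, 0.555, 2.55 (1 UMI) and 1.73 CPM, so the epithelial values at fractionated day 7 and day 14 lay under that background. T, NK and innate lymphoid cells of the single-dose library had 26.9 CPM (15.0 to 44.3, 15 UMIs in 129 cells).

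Gap43, whose product sits under the membrane of growing nerve endings and of immature Schwann cells, was highest in glia. Its glial level was 414 CPM in the control (372 to 460, 355 UMIs), 360 CPM after the single dose (301 to 426, 134 UMIs) and 254 CPM at day 14 (233 to 277, 520 UMIs). The day 14 interval lay under the other two, 1.63-fold (1.42 to 1.87) lower than the control. The 37 fractionated day 7 cells gave 7 UMIs. Fibroblasts held most Gap43 UMIs by number, 4168 in the control and 4924 at day 14, at 144 CPM (140 to 149), 30.0 CPM (25.0 to 35.7), 20.9 CPM (6.77 to 48.7, 5 UMIs) and 125 CPM (121 to 128). The single-dose fibroblast level was 4.82-fold (4.03 to 5.80) under the control. Fibroblast markers in the glial class, which bear on the glial values, summed to 6937, 3432 and 5030 CPM in the control, single-dose and day 14 libraries, beside 67443, 39862 and 71635 CPM in the fibroblasts themselves. Epithelial Gap43 was 1.30, 0.40, 0.0196 and 2.72 CPM on 55, 29, 1 and 16 UMIs. Macrophages and monocytes, which should lack the gene, had 1.72, 0.370, 0 and 4.92 CPM on 1, 4, 0 and 17 UMIs, so the epithelial values are read as background and not as expression. Fibroblast markers in the epithelial class summed to 1111, 192, 199 and 616 CPM.

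**Figure D5:**
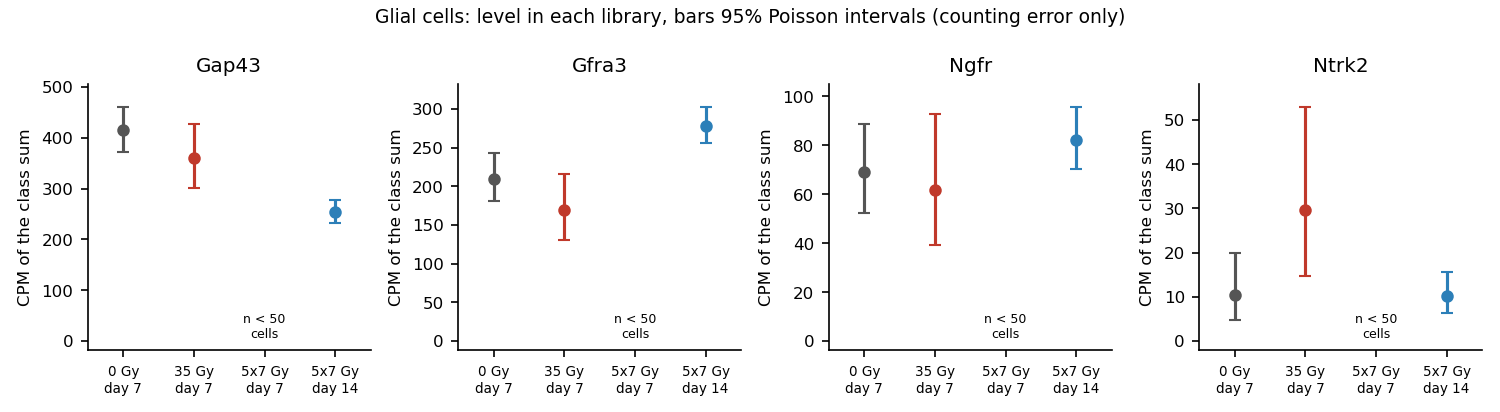
Level (CPM of the class sum) of 4 genes in the glial cells of each library, with 95% Poisson intervals for counting error; fractionated day 7 is not plotted because it had 37 glial cells. Gap43 is lower at day 14 (254 CPM) than in the control (414 CPM), Gfra3 is higher, and the Ngfr intervals overlap.

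Among glial members with enough UMIs, 1 of 4 was higher after the single dose than in the control (Ntrk2), where 10.4% of features were, and 0 were lower, where 7.76% were. At day 14, 0 of 4 were higher, where 10.8% of features were, and 0 of 4 were lower, where 2.4% were. The immediate-early and heat shock list was at least 2-fold lower for 13 of 13 genes in single-dose glia, while Gap43 was 1.15-fold (0.941 to 1.42), Gfra3 1.24-fold (0.927 to 1.68) and Ngfr 1.11-fold (0.678 to 1.89) lower, with every interval including 1. Glial Gfra3 went with this list inside the control and day 14 libraries. From the part of cells lowest in the list to the highest, Gfra3 was 103, 166 and 370 CPM in the control and 168, 313 and 360 CPM at day 14. After the single dose it was 71.9, 236 and 183 CPM on 8, 32 and 23 UMIs, which is not in order. There the interval of the lowest part (31.0 to 142 CPM) overlapped that of the highest (116 to 275 CPM). Glial Ngfr went the other way at day 14, at 108, 75.4 and 61.3 CPM. After the single dose it was 98.8, 66.4 and 23.9 CPM, on 11, 9 and 3 UMIs with overlapping intervals. In the control it was 72.8, 72.5 and 60.4 CPM. Glial Gap43 was 364, 450 and 419 CPM in the control, 368, 384 and 327 CPM after the single dose, and 302, 229 and 230 CPM at day 14. The summed list stood at 67626 CPM in control glia, 4855 CPM after the single dose and 44666 CPM at day 14, where 3 of 13 genes were lower; its part in the glial differences was not tested.

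The myelin list was described beside these genes in glia. After the single dose 1 of 12 tested genes was lower (Egr2, the transcription factor that drives myelination, 7.28-fold) and 0 were higher. At day 14, 7 of 13 were lower and 0 higher, with a list median of -1.01 on the log2 scale against 0.16 over all features. Mbp, a protein of compact myelin, was 2.93-fold lower (2.62 to 3.28), Mag 3.28-fold (2.08 to 5.22) and Cldn19, of myelin tight junctions, 3.76-fold (2.70 to 5.27). Of the glial repair list, which holds genes of injured Schwann cells, 1 of 7 was higher after the single dose and 2 were lower. The higher gene was Gfap, an intermediate filament of non-myelinating glia, at 149 CPM in the control, 1219 CPM after the single dose (8.16-fold, 6.69 to 10.0) and 235 CPM at day 14. The lower genes were Jun (24.9-fold) and Atf3 (52.3-fold), which are immediate-early genes as well. At day 14, 0 of 8 genes of that list passed 2-fold in either direction. Of all glial features tested, 10.4% were higher and 7.76% lower after the single dose, and 10.8% were higher and 2.4% lower at day 14.

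Other ligands of the family were low in epithelial cells. Of 4 tested, 0 were different after the single dose and 1 was lower at fractionated day 7 (Artn, artemin, 2.94-fold), where 12% of features were. At day 14, 4 of 4 were higher than in the control, against 8.24% of all features, and values are given for 3 of them. Artn was 2.64-fold (1.82 to 3.78) higher, Ntf4 2.23-fold (1.24 to 3.84) and Nrtn 2.01-fold (1.42 to 2.78). These day 14 values rested on few counts: 43 UMIs for Artn, 48 for Nrtn and 18 for Ntf4. Within single epithelial states at day 14, 1 of 3 ligands tested was higher in basal cells, where 5.29% of features were. In cycling cells 1 of 3 was higher, where 5% of features were, and in suprabasal cells 1 of 1, where 6.4% were. Artn in fibroblasts was 1.32 CPM in the control and 32.1 CPM after the single dose, the ligand of the co-receptor that Gfra3 encodes; this gene and class were singled out after the values were seen.

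Of 6 other receptors tested in epithelial cells, 3 were lower after the single dose (L1cam, Ncam1 and Gfra2) and 1 was higher (Sorcs2). At fractionated day 7, 3 of 6 were lower (Gfra2, Ncam1 and Rtn4r, the last named after its value was seen) and 2 were higher (Sort1 and Sorcs2), and at day 14, 2 were higher (Gfra2 and Sorcs2) and 0 lower. Of all epithelial features tested, 10.1%, 12% and 5.34% were lower in these comparisons, and 10.5%, 11.8% and 8.24% were higher. Sort1, which encodes sortilin, the partner of p75NTR for uncut precursors, was 2.61-fold (2.34 to 2.92) above the control at fractionated day 7, at 26.1 against 9.97 CPM. Gfra2 in glia was at 251, 201 and 262 CPM in the control, single-dose and day 14 libraries. Ret, the kinase that GFRα co-receptors need, had 79 fibroblast UMIs in the control, 0 in the single-dose library and 23 at day 14; the 81 fractionated day 7 fibroblasts also had 0, too few counts for a comparison.

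Adaptors that carry the receptors' signals were described in epithelial cells: of 13 tested, 2 were lower after the single dose (Ndn and Ripk2), 1 at fractionated day 7 (Ndn) and 2 at day 14 (Ndn and Ripk2), with 0 higher. The shares of all features that were lower in these comparisons were 10.1%, 12% and 5.34%. Of the enzymes and inhibitors that process neurotrophin precursors, 2 of 7 were lower after the single dose and 3 of 7 at fractionated day 7, against the same 10.1% and 12%. Plau, the urokinase plasminogen activator, was 2.33-fold (1.90 to 2.85) lower after the single dose, and the convertase genes Pcsk5 and Pcsk6 were 4.48-fold (3.25 to 6.27) and 2.28-fold (1.79 to 2.91) lower at fractionated day 7. Of 8 growth cone genes tested in epithelial cells, 1 was higher and 2 lower after the single dose, 1 higher and 5 lower at fractionated day 7 (list median -1.23 on the log2 scale, against 0.05 over all features), and 1 higher and 2 lower at day 14. The shares of all features that were higher in these comparisons were 10.5%, 11.8% and 8.24%, beside the lower shares given above. Dpysl3 was higher than in the control in all 3 irradiated libraries (5.89-, 3.76- and 4.97-fold), while Tubb3 was lower in all 3 (6.27-, 10.5- and 3.30-fold).

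By similarity of log2(CPM + 1) over 35 class and library sums, which share libraries and cell classes, the genes most like each member among 10194 were found. Bdnf was nearest to Krt32 (Pearson's r = 0.83), a keratin, followed by Acaa2 and Wnt10a. Ntf3 was nearest to Clmn and Asb4, Ntrk2 to Antxr1, Bmpr1a and Scfd2, and Ntrk3 to Kcnk3, Susd5 and AABR07007916.1. Gfra3 was nearest to Rflna, L1cam and Gabra3, Ngfr to Agmo, Scg3 and Gfra2, and Gap43 to Pcdh20, Sema3e and Fez1. Gdnf had the weakest likeness, with Il1f10 and Trio each at an r of 0.65.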

How the data were processed

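For each library the authors deposited UMI counts by gene and barcode, without normalization. Cell Ranger (5.0.0) made them, per the submitters' processing notes, which list rn7 and mRatBN7.2 as genome builds and give no annotation release. Per the labels' protocols, tissue was stored cold, shipped within 48 hours, digested and cleared of dead cells, and libraries used 10x Genomics 3′ chemistry v3.1.

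Barcodes with at least 500 UMIs, 200 genes and at most 20% mitochondrial UMIs were kept. Each cell was scored by the markers of each class, each marker scaled to its 99th percentile. It took the best class at a score of at least 0.25, with at least 3 markers and a margin of 0.1. Cells in which another lineage scored at least 0.35 were left out as likely doublets (0.881% to 6.21% of cells), and no doublet caller was run. This scoring was set after the data were seen, and 11.3% to 15.0% of cells had no class. Of 168 marker symbols, 155 matched a feature.

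Ratios of summed counts have exact conditional binomial 95% intervals, levels have Poisson intervals and shares have Clopper-Pearson intervals, all for counting error only. A library at 0 was set to a floor of 3 counts per library. Shares were computed after thinning each cell to 1000 UMIs. The members and gene lists were chosen with earlier results of these data known. Of each list, at most 4 genes per class and comparison were named by the interval bound nearest 1, and for each member the 3 genes most like it; some genes this rule names are not reported here. The calculations were tested on simulated data and used Python 3.11.15, numpy 2.4.6, scipy 1.17.1 and pandas 2.3.3. Alternatives were other filters, gates, weights, scalings and UMI limits.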

Additional observations from a re-analysis of the deposited data

Results flagged for a closer look

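Some members differed from their comparison library in opposite directions in different cell classes; with 1 pooled library per group, none of these differences between classes was tested. After the single dose, Ngfr was at a log2 ratio to the control of -1.09 in epithelial cells and 1.43 in fibroblasts. Ntrk2 in the same comparison was at 2.08 in epithelial cells, 1.49 in glia (20 UMIs in all) and 1.24 in fibroblasts, but at -2.16 in smooth muscle. At day 14 against the control, Ntrk2 was at 1.04 in epithelial cells and -1.17 in smooth muscle. Between fractionated and single dosing at day 7, Ntrk2 was at -1.81 in epithelial cells, 1.13 in fibroblasts and 1.95 in smooth muscle. Between day 14 and day 7 of fractionated dosing, Ntrk3 was at -3.56 in fibroblasts, on 3 UMIs at day 7, and 1.73 in smooth muscle.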

How the results depend on the processing

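Every group was 1 pooled library, so no replicate could be left out. No paired analysis was possible because no group had more than 1 library. Of 678 recomputed log2 ratios of the members, 614 stayed within the counting interval of the reported value, 61 moved beyond it and 3 changed sign. Weighting every cell equally moved several epithelial ratios. Against the control after the single dose, Bdnf was then at -4.00, Ntf3 at -1.51 and Gap43 at -2.65; at fractionated day 7, Bdnf was at -3.76, Ntf3 at -1.36 and Ngfr at -0.77, under 2-fold. With the same weights Ntrk2 was at -1.29 between the day 7 schedules, and between day 14 and day 7 Bdnf was at 2.88 and Ngfr at 0.38, under 2-fold. Taking 1 epithelial state alone, a choice made after seeing the data, moved some ratios. After the single dose against the control, basal cells gave Bdnf at -4.21 and Gap43 at -2.94; suprabasal cells gave Bdnf at -4.45, Ngfr at -2.34 and Ntrk2 at 2.60; cycling cells gave Bdnf at -5.74, Ntf3 at -3.16, Ngfr at -1.86, Ntrk2 at 1.43, Gfra3 at 3.39 and Gap43 at -0.26. At fractionated day 7 against the control, suprabasal cells gave Bdnf at -5.11 and Ngfr at -2.96. At day 14 against the control, Ntrk2 was at 0.32 in basal cells, under 2-fold, and 1.56 in suprabasal cells. Between the day 7 schedules, suprabasal cells gave Ntrk2 at -2.86 and Gfra3 at -3.15, and cycling cells gave Ntrk2 at -0.98, Gfra3 at -2.66 and Gap43 at -0.23. Between day 14 and day 7, Bdnf was at 3.33 in basal and 3.30 in cycling cells. A stricter limit of 0.25 on a second lineage, chosen after seeing the data, put epithelial Gap43 after the single dose at -2.71. The sign changes were those of epithelial Gap43 at day 14 against the control in suprabasal cells alone (-0.89, against 1.06), fibroblast Ntf3 between day 14 and day 7 with equal weights (0.81, on 1 UMI at day 7) and smooth muscle Gap43 at day 14 with cells of 2 lineages kept (0.13). Counts of list genes also moved: 4 higher in single-dose epithelial cells became 2 with equal weights or at least 100 UMIs, and 13 higher at day 14 became 5 with at least 100 UMIs. In glia, 2 higher after the single dose became 1 with the stricter second-lineage limit or at least 100 UMIs and 5 with no filter, 2 higher at day 14 became 1 under either of the former, and 12 lower at day 14 became 7 with at least 100 UMIs. The cause was not tested, except that a stricter UMI limit tests fewer genes. Low counts limit the glial, Gdnf and Ntrk3 values.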
